A study of Mus musculus with 6 samples.

Results

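Cytosolic and mitochondrial chaperones, their J-domain and Bag partners and the heat shock factors were compared between klotho-deficient and wild-type aortic roots. Members were taken by gene name. The families were Hspa, Hspb, Hsph1, Hsp90a, Hspd1, Hspe1, Dnaja, Dnajb, Bag and Hsf, and the endoplasmic reticulum genes Hspa5, Dnajb9 and Dnajb11 were left out. A total of 107 probe sets carried 1 such symbol each, and they stood for 48 of the 18193 genes measured. Each gene was represented by its probe set of highest mean log2 signal, and 20 of the 48 had a single probe set. Hsf1 and Hsp90ab1 were not analysed here. The name of the group fits most members but not all of them. Hspa13 is a microsomal protein, Dnajb12 and Dnajb14 are anchored in the endoplasmic reticulum membrane, Hspb11 is a subunit of the intraflagellar transport machinery, and the Hsf proteins are transcription factors.

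Both groups came from mice of the C57BL/6J albino strain aged 6.0 to 6.5 weeks. The klotho-deficient mice were homozygous for a mutant Klotho allele and the controls were homozygous for the wild-type allele. Klotho is the co-receptor of the phosphate-regulating hormone FGF23. Each array held RNA pooled from the dissected roots of 3 mice, comprising the valve with its annulus and some ascending aortic wall, and each genotype had 3 arrays, so 9 mice. The allele is not limited to a cell type by the labels, and a pool gives no value for a single mouse.

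Heat shock proteins bind unfolded or misfolded proteins and hold, refold or pass them on for degradation. Hsp70 proteins do this in cycles of ATP hydrolysis, in which J-domain proteins deliver the client and start hydrolysis while Hsp110 and Bag proteins release the nucleotide. Inside mitochondria the Hsp70 protein Hspa9 and the barrel of Hspd1 with its lid Hspe1 fold imported proteins, and small heat shock proteins hold clients without ATP and are abundant in muscle, including vessel walls. Under stress, heat shock factors bind heat shock elements, which are runs of alternating GAA and TTC blocks, in promoters of many of these genes.

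Stretches of the promoters are shown because they hold such an element or, for Hsph1, because this gene had the smallest p of the members that were above the controls in either genotype. The sequences are those of RefSeq for mouse build GRCm38.p6, are written 5′ to 3′ on the strand of the gene and have the matched letters in capitals. The search covered the 250 bases before each start on both strands. An element of 2 units was read as GAANNTTC or TTCNNGAA. One of 3 units adds a further alternating block after any 2 bases (GAA, NN, TTC, NN, GAA or TTC, NN, GAA, NN, TTC), so each 3-unit match also holds 2-unit matches. Hspd1 and Hspe1 lie back to back with 215 bases between their starts, and the first pair of lines is the same stretch, chr1:55088038-55088097, read on the minus and on the plus strand.
Hspd1: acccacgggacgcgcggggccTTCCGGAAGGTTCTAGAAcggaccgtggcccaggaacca
Hspe1: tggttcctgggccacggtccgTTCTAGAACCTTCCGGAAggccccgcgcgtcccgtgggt
Dnajb6: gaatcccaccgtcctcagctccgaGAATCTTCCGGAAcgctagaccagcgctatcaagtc
Hsph1: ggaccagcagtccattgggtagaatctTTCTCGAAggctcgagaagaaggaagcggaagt
Hspa1a: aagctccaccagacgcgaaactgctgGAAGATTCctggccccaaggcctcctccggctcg
Hspa1b: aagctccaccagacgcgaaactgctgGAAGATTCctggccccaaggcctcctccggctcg
The Dnajb6 stretch is chr5:29735828-29735887 on the plus strand. The Hsph1 stretch is chr5:149636337-149636396, that of Hspa1a is chr17:34972227-34972286 and that of Hspa1b is chr17:34959309-34959368, each on the minus strand.

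A 3-unit match lay in the windows of Hspd1, Hspe1 and Dnajb6 and of no other member with an entry. That is 3 of the 42 genes of these families in the promoter table (7.14%), against 139 of the 27025 genes of the whole table (0.514%). Hspd1 and Hspe1 count as separate genes here but share the same stretch, which holds 2 overlapping 3-unit matches. A 2-unit match was held by 13 of the 42 genes (31.0%), against 3932 of all 27025 (14.5%). A gene counts here when any of its entries holds a match. In Hsph1 the 2-unit match ended 25 bases before the start. The 250-base windows of Hspa1a and Hspa1b were the same at 247 positions (98.8%). Dnajb1, Dnajb2, Hspa12a and Hspa12b had no match, which says that these letters are not in this window. Of the 48 measured members 41 had an entry. Bag4, Hsf4, Hsp90aa1, Hspa13, Hspa8, Hspa9 and Hspb2 had none.

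The arrays gave linear signals that the submitters had scaled, and each difference is the log2 signal of klotho-deficient minus that of wild-type pools, with limma's SE after ±. A negative difference means a lower signal in klotho-deficient roots. The highest signal of 27 bacterial control probe sets, 161.8, was taken as the background level, and 41 of the 48 members had a mean above it. The labelled tissue was checked by markers, and all 8 genes of contractile smooth muscle, all 9 of valve interstitial cells and fibroblasts and all 7 of endothelium had means above this level. Wild-type replicate 3 stood apart in the ratio of 3′ to 5′ Gapdh signal, a sign of RNA integrity and amplification, at 7.18 against 3.23 to 4.08 on the other arrays, while the Actb ratio was 1.07 to 1.18 on all 6. It also had the highest endothelial marker level, with a mean log2 deviation of 0.76 against -0.31 to -0.03 elsewhere. Y-linked genes above the background level numbered 3 on each wild-type array and on the first klotho-deficient one, and 0 on klotho-deficient replicates 2 and 3, so these transcripts were unevenly spread over the genotypes. The X-linked Xist was high on all 6 arrays, at 26304, 36290 and 19874 in klotho-deficient and 22338, 20770 and 20582 in wild-type pools. Kl itself gave 138, 217 and 189 in the klotho-deficient pools and 167, 185 and 202 in the wild-type pools, so it does not check the genotype labels.

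No member passed the test across all genes. With limma and Benjamini-Hochberg adjustment at 0.05, 0 of the 48 members and 0 of 18193 genes (0%) were called, and adjusted p of the members ran from 0.670 to 0.994. By value, 31 members were lower and 17 higher in klotho-deficient roots, with a median difference of -0.10 beside 0.00 over all genes. At an unadjusted p under 0.05 in limma, 2 members were lower (Hsph1 and Hspa12b) and 1 was higher (Hspb9), where 3.16% of all genes were lower and 3.25% higher. Without wild-type replicate 1 the lower count was 1, and without klotho-deficient replicate 3, wild-type replicate 2 or wild-type replicate 3 the higher count was 2.

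All 3 klotho-deficient arrays lay below all 3 wild-type arrays for 7 members (14.6%), namely Hsph1, Hspa12b, Hspd1, Dnajb2, Dnajb1, Hspa12a and Hspa9. The same was so for 6.84% of all genes, and genes or probe sets without overlap are called separated in what follows. They lay above for 2 members (4.17%), Hspb3 and Hspb9, against 6.63% of all genes. Among the 41 members above the background level, 28 were lower (68.3%, against 50.8% of all such genes) and the median was -0.12 beside -0.01. In that set 7 members were separated downwards (17.1%, against 7.86%) and 1 upwards (2.44%, against 6.95%). In pooled tissue, fewer cells of a type and less RNA per cell cannot be told apart.

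**Figure D1:**
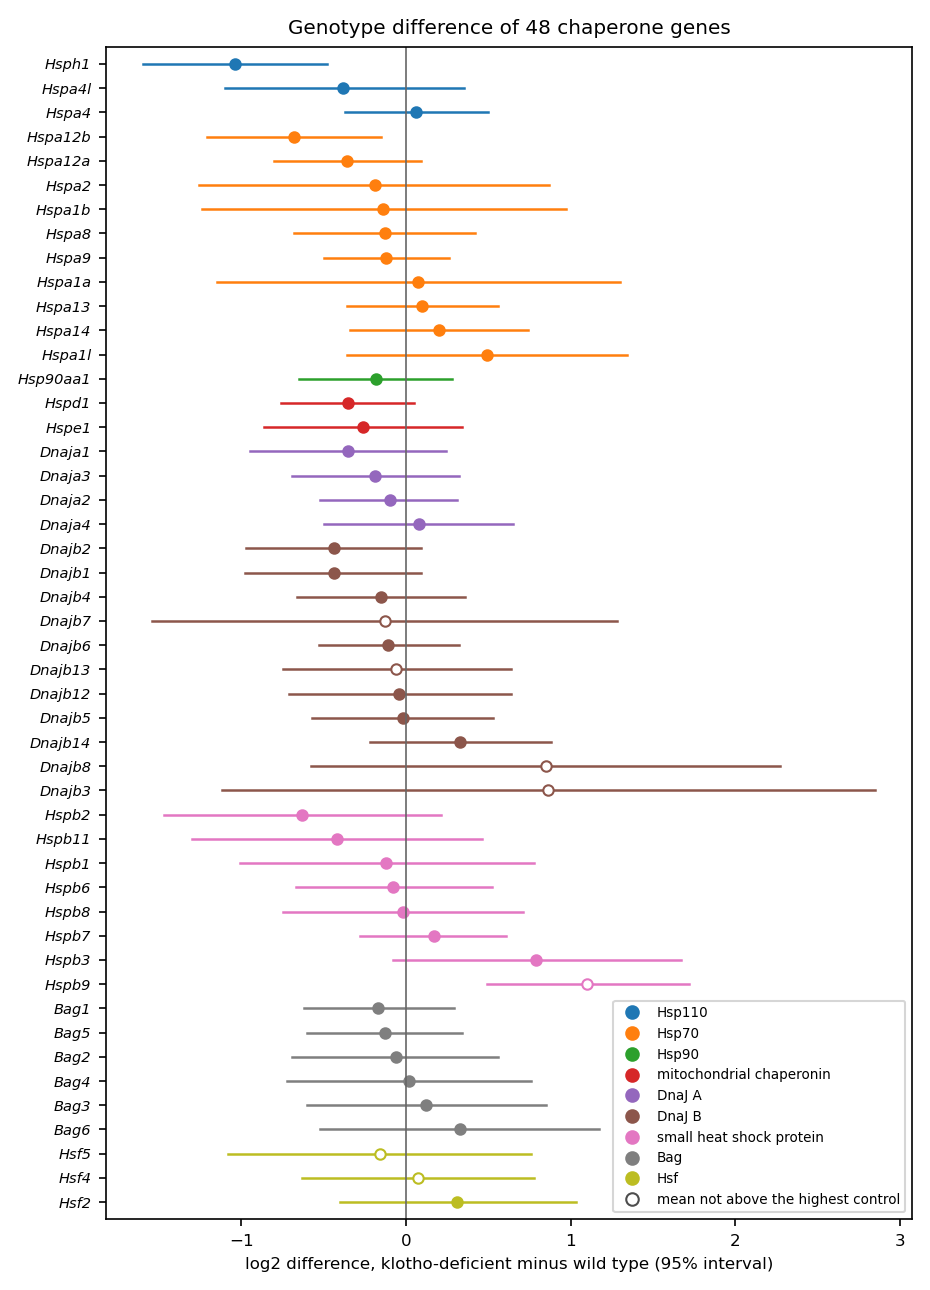
Difference of each of the 48 members between genotypes (klotho-deficient minus wild type, log2), grouped by family, with limma's 95% interval as a line and open points for the 7 members whose mean was not above the background level. Hsph1 lies lowest at -1.04 and Hspa12b follows at -0.68, while most intervals include 0.

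The Hsp110 proteins, which release nucleotide from Hsp70 and help it to dissolve aggregates, held the member with the most negative difference. Hsph1 (probe set 1425993_a_at) gave 9399, 7235 and 7462 in the klotho-deficient pools and 15531, 13718 and 20732 in the wild-type pools. The genotypes did not overlap, and klotho-deficient roots held 48.6% of the wild-type signal on the log scale, with means of 8032 ± 1189 and 16660 ± 3641 (SD, n = 3). The difference was -1.04 ± 0.23 (95% interval -1.60 to -0.48), and limma gave an unadjusted p of 0.00392 and an adjusted p of 0.670. A second Hsph1 probe set, 1423566_a_at, was separated in the same way. It read 6404, 6551 and 6180 against 13008, 12296 and 19164 (-1.19). The difference was -0.87 without wild-type replicate 3, the array of highest Hsph1 signal, and -0.80 with a term for the arrays without Y-linked transcripts. Adjusted p ran from 0.177 to 0.938 over the alternatives.

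The other Hsp110 members gave no single direction across probe sets. Hspa4, also known as Apg-2, read 29334, 25850 and 22648 against 25900, 24490 and 23675 on the probe set that represented it, and the genotypes overlapped (0.06 ± 0.18). Its other probe sets above the background level were lower in klotho-deficient roots. Probe set 1435194_at gave 18457, 20362 and 20386 against 30522, 28443 and 22952 (-0.46), and 1416147_at gave 883, 802 and 1531 against 2675, 2451 and 3405 (-1.45, unadjusted p = 0.00301 and adjusted p = 0.693 in limma over all probe sets). Both were without overlap, and the remaining probe set of Hspa4 was at -0.51. The direction for Hspa4 therefore depends on which probe set is read. Hspa4l overlapped at -0.38 ± 0.30, and one of its other probe sets, 1449010_at, did not, with 616, 612 and 665 against 915, 871 and 867 (-0.49). The rest of its probe sets were at -0.34, -0.09 and 0.09.

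Among the Hsp70 proteins the separated members were Hspa12b, Hspa12a and Hspa9. Hspa12b, a divergent member of the family that is found mainly in endothelial cells, gave 4860, 5052 and 4302 in klotho-deficient pools and 7554, 6152 and 9378 in wild-type pools. All klotho-deficient arrays were lower, at 62.3% of wild type (-0.68 ± 0.22, interval -1.21 to -0.15, unadjusted p = 0.0196 and adjusted p = 0.723 in limma). Leaving out 1 array at a time gave -0.83 to -0.53. Beside it, 6 of 7 endothelial markers were lower by value, with a median of -0.39. Their summed signal was 25833 to 32178 in klotho-deficient and 28881 to 54598 in wild-type pools, and none was at background. By pool, the mean log2 deviation of these markers read -0.18, -0.31 and -0.03 (klotho-deficient), against -0.15, -0.09 and 0.76 (wild type). Only the last value, that of wild-type replicate 3, was positive, whereas Hspa12b was higher in every wild-type pool. Tek and Tie1, receptor kinases of endothelium, were separated (-0.63 and -0.44), whereas Pecam1 was at 0.07. The separated share of the list was 28.6%, against 6.84% of all genes. The part of endothelial RNA in the Hspa12b difference was not tested.

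Hspa12a, the paralog of Hspa12b, read 928, 1107 and 1025 against 1142, 1402 and 1382 (-0.36 ± 0.18). Its other 3 probe sets above the background level were at 0.08, 0.04 and -0.19, so the separation was seen on 1 of 4. Hspa9, the mitochondrial Hsp70 also called mortalin, gave 10157, 10011 and 9407 against 10613, 10683 and 10781. The groups did not overlap but the difference was small, -0.12 ± 0.16, and its other probe sets above the background level were at -0.04 and 0.30.

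Hspa8, the constitutive cytosolic Hsp70, read 50058, 50470 and 34742 in klotho-deficient pools and 49426, 42692 and 54321 in wild-type pools. The genotypes overlapped, with klotho-deficient replicate 3 the lowest of the 6 (-0.13 ± 0.23, interval -0.68 to 0.42). Its other 3 probe sets were all lower, between -0.57 and -0.23, with overlap.

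The stress-induced pair Hspa1a and Hspa1b varied more among pools than between genotypes. Hspa1a gave 9520, 4205 and 15369 against 6697, 7140 and 11090 (0.07 ± 0.50). Hspa1b gave 21918, 10881 and 26224 against 18942, 13685 and 31973 (-0.14 ± 0.45). In both genes klotho-deficient replicate 2 was the lowest array, and replicate 3 was the highest of each genotype. The highest array exceeded the lowest by 3.65-fold for Hspa1a and by 2.94-fold for Hspa1b. The genes are near-identical copies, also in the promoter stretches printed above, so how the signal divides between them is uncertain.

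The remaining Hsp70 members overlapped. Hspa1l, a testis-rich relative of Hspa1a, was at 0.49 ± 0.35 and Hspa2, which is also abundant in testis, at -0.19 ± 0.44. Hspa13 was at 0.10 ± 0.19, and its other 3 probe sets were between -0.29 and -0.06. Hspa14, a ribosome-associated Hsp70, was at 0.20 ± 0.22. Its probe set 1439826_at was separated upwards, with 690, 506 and 506 against 320, 173 and 431 (0.96), close to the background level on one wild-type array. In all, 6 of the 10 Hsp70 genes were lower and 4 higher by value, with a median of -0.12.

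**Figure D2:**
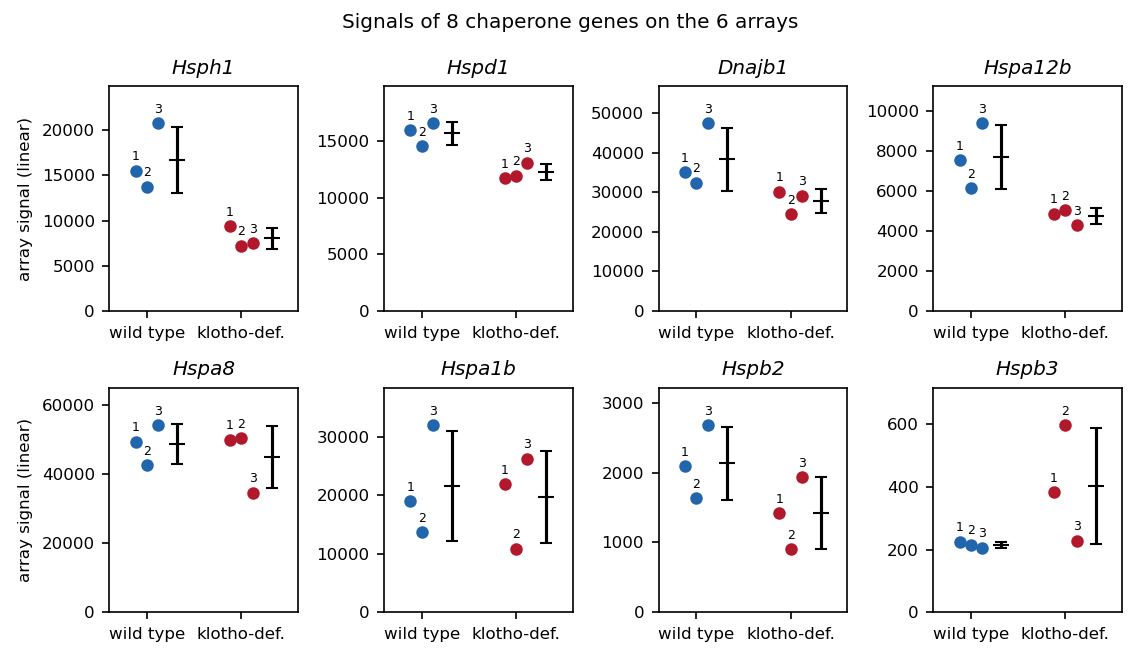
Linear array signal of 8 members in each pool (points numbered by replicate, each axis from 0), with the mean and SD of the 3 arrays per genotype beside them. Hsph1, Hspd1, Dnajb1 and Hspa12b show klotho-deficient points below all wild-type points, Hspa8, Hspa1b and Hspb2 overlap, and Hspb3 is higher by amounts that differ among the klotho-deficient pools.

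Hsp90aa1, the inducible cytosolic Hsp90, gave 16540, 18487 and 13451 against 18725, 18626 and 17312, and the groups overlapped (-0.18 ± 0.19). The probe sets 1426645_at and 1437497_a_at of the same gene were separated downwards. The first read 12833, 13763 and 10828 against 17007, 15899 and 14752 (-0.35), and the second 8977, 9755 and 6589 against 10938, 10069 and 11774 (-0.39). The remaining probe set above the background level was at 0.07.

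Both subunits of the mitochondrial chaperonin were lower by value. Hspd1, the Hsp60 barrel subunit, read 11721, 11928 and 13078 in klotho-deficient pools and 15940, 14518 and 16526 in wild-type pools. There was no overlap, and klotho-deficient roots were at 78.2% of wild type (-0.35 ± 0.17, interval -0.76 to 0.05, unadjusted p = 0.0743 and adjusted p = 0.775 in limma). Leaving out any 1 array gave -0.41 to -0.32. Hspe1, the Hsp10 lid subunit, gave 11035, 13273 and 11496 against 12265, 12100 and 19407. Its groups overlapped, wild-type replicate 3 being far above the rest, and the difference of -0.26 ± 0.25 became -0.03 without that array. The other Hspe1 probe set was at -0.32. These neighbours, which share the 3-unit matches printed above, thus had the same sign but only Hspd1 was separated.

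The DnaJ B members hold cytosolic J-domain proteins that hand clients to Hsp70. Dnajb1, the stress-induced Hsp40, gave 30116, 24403 and 29082 in klotho-deficient pools and 35123, 32389 and 47389 in wild-type pools. It was separated, at 73.5% of wild type (-0.44 ± 0.22, unadjusted p = 0.0870 in limma). Without wild-type replicate 3, the highest array, the difference was -0.28. The other Dnajb1 probe set, 1416756_at, overlapped at -0.16. Dnajb2, a J-domain protein that also binds ubiquitin, read 6300, 5820 and 7314 against 8441, 7375 and 10825. Its groups were separated as well, the highest klotho-deficient and the lowest wild-type pool being close (-0.44 ± 0.22, and -0.29 without wild-type replicate 3).

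Dnajb4, another cytosolic J-domain protein, read 46361, 36633 and 32653 against 42741, 37651 and 47289 and overlapped (-0.15 ± 0.21). Its other probe sets were at -0.22 and 0.32. Dnajb6, a suppressor of protein aggregation whose promoter holds a 3-unit match, was at -0.11 ± 0.18, and its other 3 probe sets were at 0.04, 0.14 and 0.26. Dnajb5 was at -0.02 ± 0.22, and the membrane-anchored Dnajb12 and Dnajb14 were at -0.04 ± 0.28 and 0.33 ± 0.23. Dnajb5 had other probe sets at 0.21 and 0.06, and the other Dnajb14 probe set was at -0.07. The second Dnajb12 probe set was separated upwards, with 823, 695 and 718 against 694, 473 and 496 (0.44). Dnajb3, Dnajb7, Dnajb8 and Dnajb13 were not above the background level by mean signal. In this subfamily 8 of 11 genes were lower and 3 higher, with a median of -0.06.

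In the DnaJ A subfamily 3 of 4 genes were lower and none was separated on the probe set that represented it (median -0.15). Dnaja1, a cytosolic J-domain protein with a 2-unit match in its promoter, gave 20711, 21397 and 17271 against 23725, 20254 and 33276. The wild-type range was wide and enclosed part of the klotho-deficient one (-0.35 ± 0.24, and -0.15 without wild-type replicate 3). A second Dnaja1 probe set was separated, with 5272, 5713 and 5890 against 6796, 6156 and 7934 (-0.30). The mitochondrial Dnaja3 was at -0.19 ± 0.21, with other probe sets at 0.01 and -0.24. Dnaja2 was at -0.10 ± 0.17 and Dnaja4 at 0.08 ± 0.24, both with overlap. Other probe sets were at 0.28, 0.15 and -0.09 for Dnaja2 and at -0.02 and -0.41 for Dnaja4.

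The small heat shock proteins, ATP-independent holders of unfolding proteins, pointed both ways. Hspb3, found mainly in muscle, was higher, with 382, 597 and 228 in klotho-deficient pools and 225, 215 and 206 in wild-type pools. The groups were separated narrowly, klotho-deficient replicate 3 lying just above wild-type replicate 1 (0.79 ± 0.36, unadjusted p = 0.0690 in limma). The wild-type signals and that of klotho-deficient replicate 3 were close to the background level of 161.8. Without klotho-deficient replicate 2, the highest, the difference was 0.46. Hspb2, a muscle protein that binds the myotonic dystrophy kinase, gave 1418, 902 and 1931 against 2088, 1637 and 2680. The groups overlapped, and klotho-deficient replicate 2 was again at the end of the range, here the lowest (-0.63 ± 0.34, and -0.34 without it).

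Hspb7, a heart and muscle protein of this family, read 19141, 17781 and 22325 against 15743, 18273 and 18715 and overlapped (0.17 ± 0.18). Hspb1, the Hsp27 protein of the actin cytoskeleton, was at -0.12 ± 0.37. Hspb6, a smooth and striated muscle protein, was at -0.08 ± 0.24, and Hspb8, the partner of Bag3, at -0.02 ± 0.30. The other Hspb8 probe sets were at -0.07 and 0.14. Hspb11 was at -0.42 ± 0.36, with its other probe set at 0.23. Hspb9, which is known from testis, had the largest positive value of the members, 1.10, but its signals were 77, 84 and 123 against 48, 46 and 36, below the background level on all arrays, so no fold is given.

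Muscle markers varied along with the pools beside these genes. The mean log2 deviation of 12 cardiomyocyte genes was -0.48, 0.60 and 0.28 in klotho-deficient replicates 1 to 3 and -0.72, 0.23 and 0.09 in the wild-type replicates. Their summed signal was 84358 to 137710 against 75741 to 112604, with all 12 detected. By value 6 were lower and 6 higher, and only Tcap was separated, upwards at 1.55 (8.33% of the list, against 6.63% of all genes). For 10 skeletal muscle genes the sums were 1893 to 2687 against 1346 to 2076, with Myh2 and Myh4 not above background on any array. Hspb3 was highest on klotho-deficient replicate 2, which also had the highest mean deviation for both lists. Its next highest signal, 382, was on klotho-deficient replicate 1, where the cardiomyocyte genes were at -0.48. Hspb2 and Hspb6 were instead lowest on klotho-deficient replicate 2. The sums of 8 smooth muscle genes were 150483 to 200839 and 160206 to 175667, the wild-type range lying within the klotho-deficient one. Their mean deviation was 0.29, -0.30 and 0.07 in klotho-deficient replicates 1 to 3, and 0.03, -0.04 and -0.05 in the wild-type replicates. The part of heart or skeletal muscle RNA in the Hspb differences was not tested.

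Bag proteins, nucleotide exchange factors that steer Hsp70 clients to different fates, split evenly with 3 lower and 3 higher and none separated (median -0.02). Bag1, which links Hsp70 to the proteasome, read 19210, 18983 and 17280 against 19932, 18249 and 24465 (-0.17 ± 0.19). Bag3, which directs clients to autophagy and is stress-induced, was at 0.12 ± 0.30. The largest difference was that of Bag6, which captures proteins with exposed hydrophobic stretches, at 0.33 ± 0.35. Its wild-type pools lay between 1569 and 1656 and its klotho-deficient pools at 2018, 1276 and 3194. Bag2, an inhibitor of the ubiquitin ligase Stub1, was at -0.06, Bag4 at 0.02 and Bag5 at -0.13. The other Bag5 probe set was at 0.26.

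Of the heat shock factors only Hsf2, a factor active in development and under proteasome stress, had a mean above the background level. It gave 358, 307 and 283 against 208, 380 and 204 and overlapped (0.31 ± 0.29). The means of Hsf4 and Hsf5, known from lens and testis, were not above the background level.

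Where several probe sets measured 1 gene they often differed. Of the 107 member probe sets 95 had a mean above the background level, of which 59 were lower and 36 higher by value with a median of -0.09. Of these 95, 14 were separated downwards (14.7%), in 11 genes, and 3 upwards (3.16%). Among all 25707 probe sets of single genes above this level the shares were 6.84% and 6.73%. Probe sets of 1 gene are not independent of each other. Of the 27 genes with at least 2 probe sets above the background level, 17 had both signs. Hsph1, Hspa4 and Hsp90aa1 each had 2 probe sets separated downwards.

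**Figure D3:**
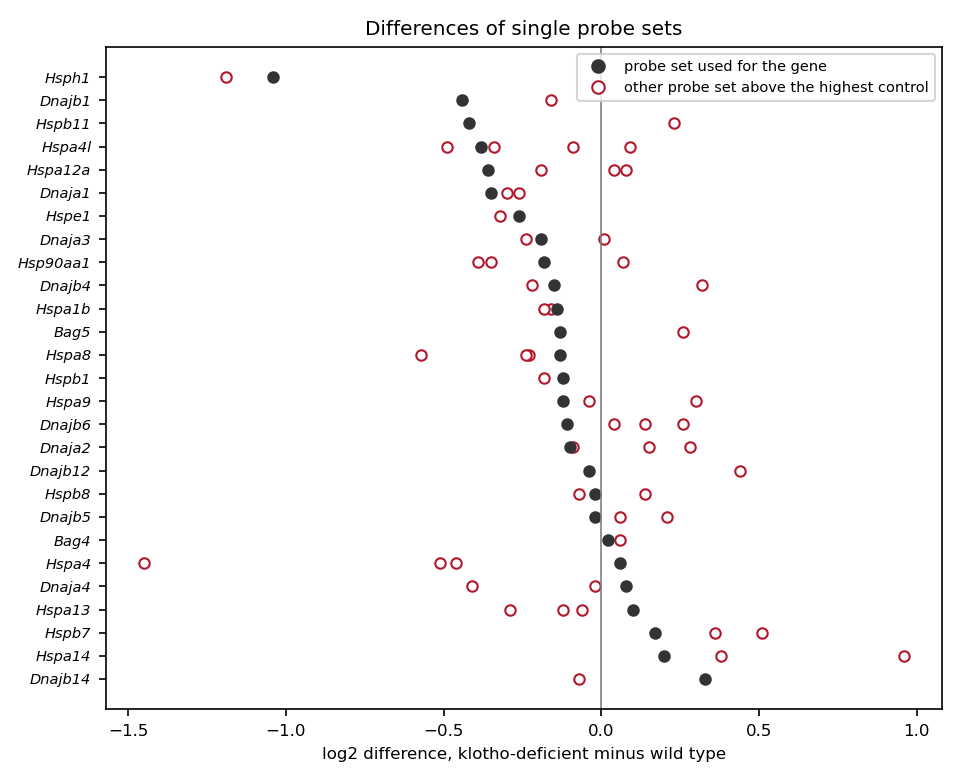
Differences (klotho-deficient minus wild type, log2) of single probe sets for the 27 members with 2 or more above the background level; filled points represent the gene and open points are its other probe sets. Both Hsph1 probe sets lie below -1, while those of Hspa4 spread from -1.45 to 0.06.

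The members did not move evenly over the arrays. Wild-type replicate 3 was the highest of the 6 arrays for 18 of the 41 members above the background level (43.9%), against 25.5% of all genes above it. Klotho-deficient replicate 2 was the lowest for 19 of 41 (46.3%, against 20.7%), and klotho-deficient replicate 3 was the highest for 14 (34.1%, against 24.5%). The median member deviated from its own mean by 0.22 on wild-type replicate 3 and by -0.17 on klotho-deficient replicate 2, and by -0.05 to 0.01 on the others. The median difference of the 48 members was -0.03 with 28 lower when wild-type replicate 3 was left out, and 0.04 with 23 lower when klotho-deficient replicate 2 was left out. The Gapdh ratio and the endothelial markers that set wild-type replicate 3 apart are given above. Of 7 mesothelial and epithelial markers 6 were lower by value and 3 separated (median -0.66), with a mean deviation of 0.80 on wild-type replicate 3, -0.69 on klotho-deficient replicate 3 and -0.12 to 0.10 on the others. Their summed signal was 22796 to 37165 in klotho-deficient and 33653 to 57441 in wild-type pools, and none was at background. Of 8 cartilage markers 7 were higher by value and none separated (median 0.69), with mean deviations of 0.80 and 0.93 on klotho-deficient replicates 2 and 3 and -0.68 to -0.08 elsewhere, and sums of 6653 to 34129 against 8731 to 10391. The part of these cells or of RNA quality in the shifts of the members was not tested. Hsph1, Hspa12b and Hspd1 kept differences of -0.87, -0.53 and -0.32 without wild-type replicate 3 and of -0.97, -0.73 and -0.34 without klotho-deficient replicate 2.

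**Figure D4:**
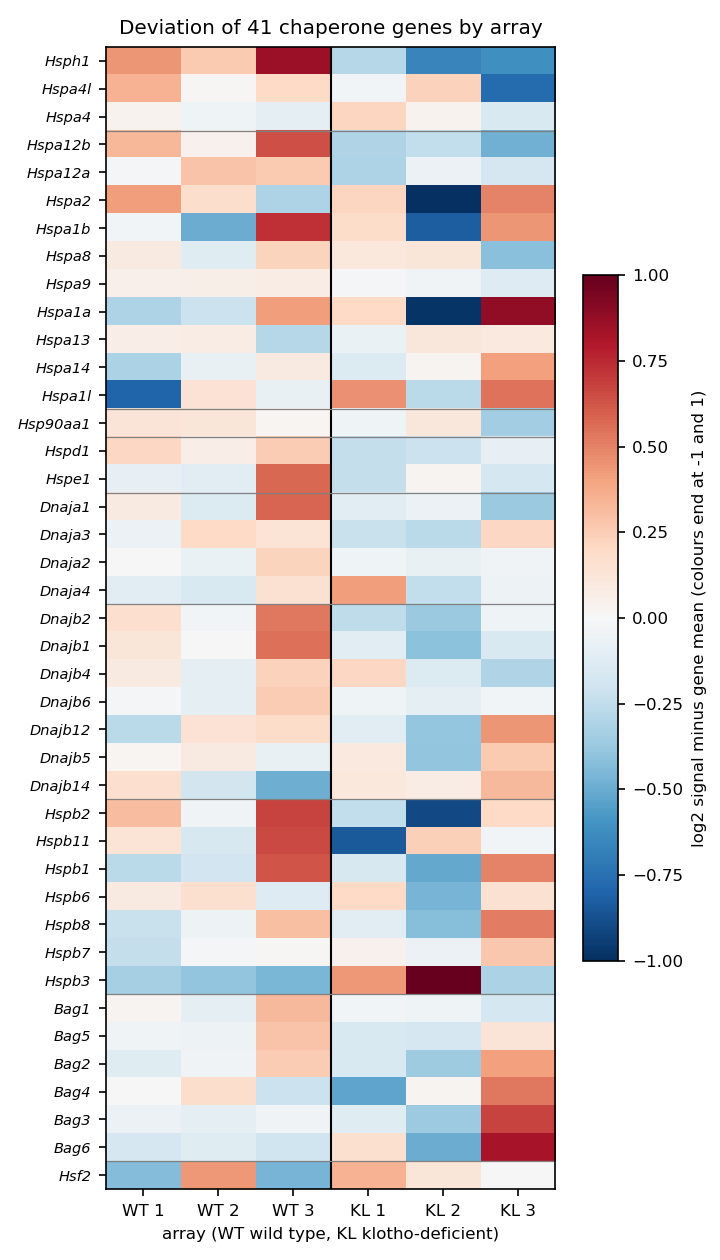
Log2 signal of the 41 members above the background level minus the gene's mean over the 6 arrays, by array (columns) and family (lines between rows); red is above and blue below the mean, and colours end at -1 and 1. Wild-type replicate 3 is the highest array for 18 genes and klotho-deficient replicate 2 the lowest for 19, and Hsph1 is red on all wild-type and blue on all klotho-deficient arrays.

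The promoter matches were set beside the differences as a description. The 3 genes with a 3-unit match were lower, at -0.35 for Hspd1, -0.26 for Hspe1 and -0.11 for Dnajb6. Hspd1 and Hspe1 share the same stretch, and Hspe1 was at -0.03 without wild-type replicate 3. The other Dnajb6 probe sets were higher (0.04, 0.14 and 0.26). Among the 38 others with an entry 24 were lower, with a median of -0.07. Of the 13 members with a 2-unit match 10 were lower (median -0.14) and of the 28 without one 17 were lower (median -0.05). No test was run on these splits.

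Partners of the members were read from lists of named genes, of which 90 of 98 were measured. By value 64 were lower and 26 higher, with a median of -0.10. In limma 0 passed the adjustment over all genes, and 8 were lower and 0 higher at an unadjusted p under 0.05, beside 3.16% and 3.25% of all genes. Of these 8, 4 were endoplasmic reticulum chaperones, which the member rule left out. The genotypes were separated downwards for 13 (14.4%, against 6.84% of all genes) and upwards for 2 (2.22%, against 6.63%), and 6 of the 13 were the endoplasmic reticulum chaperones described last. The count of 8 was 3 without klotho-deficient replicate 1 or 2 and 4 without any 1 wild-type replicate, and was 12 without klotho-deficient replicate 3. The count of 0 became 2 without wild-type replicate 3.

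Of 14 Hsp90 cochaperones 10 were lower and 4 higher (median -0.18). Ahsa2, related to the Hsp90 ATPase activator Ahsa1, read 4112, 3963 and 3668 against 6002, 5233 and 7928 (-0.69 ± 0.21). The immunophilin Fkbp4 gave 2417, 2144 and 3077 against 3446, 3413 and 3791 (-0.49 ± 0.20), and Chordc1, which binds Hsp90, was separated as well (-0.38 ± 0.21). Upwards, the phosphatase Ppp5c was separated, with 664, 685 and 738 against 503, 507 and 653 (0.34 ± 0.19). The largest difference in these lists was that of Fkbp5, a glucocorticoid-induced immunophilin, named after its values were seen, with 5638, 4838 and 5007 in klotho-deficient pools and 1017, 1336 and 5267 in wild-type pools (1.42 ± 0.62, unadjusted p = 0.0603 in limma). Wild-type replicate 3 lay within the klotho-deficient range of Fkbp5, so the groups overlapped. Stip1, which bridges Hsp70 and Hsp90, overlapped at -0.27 ± 0.26, as did Ahsa1 at -0.29 ± 0.25. The other Ahsa1 probe set was higher by value.

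Of 23 Hsp70 cochaperones outside the members 12 were lower and 11 higher. St13, the Hip protein that stabilises the ADP state of Hsp70, was the one separated, with 5393, 5767 and 6606 against 8108, 7487 and 8491 (-0.44 ± 0.17). Dnajc6, an auxilin that uncoats clathrin vesicles, overlapped at -0.68 ± 0.37. Among 14 mitochondrial chaperone partners and proteases 11 were lower (median -0.15). Atf5, a transcription factor of the mitochondrial stress response, gave 8938, 7692 and 10598 against 13434, 14476 and 14577 (-0.65 ± 0.19, unadjusted p = 0.0136 and adjusted p = 0.671 in limma). Clpx, the unfoldase of a matrix protease, was separated upwards (0.40 ± 0.22).

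Of 14 subunits of the TRiC chaperonin and prefoldin, which fold actin and tubulin, 11 were lower with none separated (median -0.08), Pfdn4 at -0.29 ± 0.22 and Cct3 at -0.24 ± 0.19 having the smallest p. In 12 ubiquitin and proteasome genes 7 were lower and none was separated (median -0.08), with the proteasome subunits Psma1 and Psma4 both at -0.25. The other 3 Psma1 probe sets above the background level were higher by value. Cryab, the αB-crystallin of muscle and a relative of the Hspb proteins, read 17707, 18907 and 20972 against 22228, 23889 and 26816. It was separated downwards (-0.34 ± 0.18). The eye lens Cryaa and the sperm protein Odf1, at signals from 49 to 223, had values of -0.09 and -0.07.

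The endoplasmic reticulum chaperones that the member rule left out were all lower by value, 10 of 10, and 6 of them were separated, against 6.84% of all genes. Their median was -0.38. Creld2, a stress-induced protein of this compartment, was at -1.28 ± 0.24 and Sdf2l1, a cofactor of the J-domain proteins there, at -0.63 ± 0.20. The collagen chaperone Serpinh1, a heat shock gene that works in the same compartment, was at -0.44 ± 0.16.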

How the data were processed

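The values deposited by the authors are intensities on a linear scale for 45101 probe sets. RMA is named in the submitters' processing notes, and whether it gave this linear scale is not known here. Trimmed by 2% at both ends, array means were 1500.0, so the arrays had been scaled. Signals were log2-transformed with no pseudocount or further normalization. Probe sets with 1 symbol in GEO's platform annotation (34945) gave 18193 genes, each by its probe set of highest mean log2. All 48 members matched RefSeq gene identifiers. Limma 3.58.1 (R 4.3.3) tested the genotype difference (lmFit, eBayes, 4 residual and 2.1 prior degrees of freedom, two-sided, Benjamini-Hochberg over all genes, threshold 0.05). The number of arrays limits the precision, and p-values measure the spread between pools.

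Members and lists were chosen with earlier results of these data known. Values by array are given for members above background that were separated or had an unadjusted p under 0.05, and for the member of highest signal in each family. From each list the 2 genes of smallest p are named, plus Cryab, Fkbp4, Stip1, Chordc1, Ahsa1 and Serpinh1. Array values of Hspa1a, Hspa1b, Hspe1, Hspb2, Hspb9, Bag6 and further probe sets, and Fkbp5 and Ppp5c, were picked after they were seen. Alternatives were other normalizations, filters, summaries, priors and covariates, and each array left out. Plots used matplotlib 3.10.9 (Python 3.11.15).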

Additional observations from a re-analysis of the deposited data

How the results depend on the processing

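With 3 pools per genotype, no member was called by limma under any alternative, and the lowest adjusted p of a member was 0.177 (Hsph1 among genes above the median signal). Over all genes the count of 0 became 1 with array weights, with genes above the highest control, with 100 added before the log2 and without klotho-deficient replicate 1, and 2 with genes above the median and with a trended robust prior. At an unadjusted p under 0.05 the lower members numbered 5 over all probe sets and with a trended robust prior, 4 above the median and 1 with the Y-linked covariate, and 1 to 2 with an array left out. The higher members numbered 2 over all probe sets, with array weights and with quantile normalization, 0 with the covariate, above the median and with the trended prior, and 1 to 2 with an array left out. The number lower was 64 of 107 when probe sets were counted and 23 to 34 with an array left out, where the median ran from -0.16 to 0.04. Lower pathway genes numbered 13 over all probe sets, 3 with the covariate and 3 to 12 with an array left out. Higher ones numbered 2 over all probe sets and with array weights, 1 above the highest control, above the median, with 100 added and with the trended prior, and 0 to 2 with an array left out. The causes were not tested. Same-numbered arrays deviated with correlations of 0.17, -0.01 and 0.16 across genes, and differently numbered ones with -0.20 to 0.07. With 3 pools per genotype these values cannot tell whether the numbers pair the pools. With the replicate block 0 members and 0 genes were called, and Hsph1 had an adjusted p of 0.725, so no call changed. Filters on dim genes gave no value for the members they removed.

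Of the 48 members 22 kept their sign under every alternative run and 26 turned in at least 1. With array weights the turned values were 0.00 for Hspa8 and Dnajb4, 0.09 for Hspa1b, -0.02 for Hspa13, 0.03 for Dnajb7 and -0.25 for Bag4. With the covariate they were 0.16 for Hspb6, 0.11 for Hspa2, 0.12 for Hspa1b, -0.03 for Hspa14, -0.02 for Hspa13, 0.60 for Dnajb7, 0.04 for Hspa8, 0.13 for Dnajb4, -0.51 for Bag4, -0.06 for Bag3 and 0.08 for Dnajb5. With the mean of a gene's probe sets they were -0.09 for Hspa13, 0.36 for Hspa9, 0.02 for Hspb8, -0.59 for Hspa4, 0.08 for Dnajb6 and Dnajb5, 0.07 for Bag5, 0.20 for Dnajb12, -0.12 for Dnaja4, 0.06 for Dnaja2 and -0.15 for Bag4. Such means took in probe sets not above the background level, among them 1453811_at of Hspa9, which was at 1.65. With quantile normalization Hspa1b was at 0.01 and Hspb8 at 0.03. With each array left out in turn, the sign turned for Dnajb12 from -0.26 to 0.15, Hspa1a from -0.36 to 0.58, Hspb8 from -0.28 to 0.19, Hsf4 from -0.11 to 0.32, Hspa1b from -0.42 to 0.24, Dnajb13 from -0.21 to 0.18, Dnajb5 from -0.16 to 0.17, Bag2 from -0.29 to 0.10, Bag4 from -0.24 to 0.29 and Dnajb7 from -0.49 to 0.49. Also turned were Hspb1 from -0.39 to 0.17, Dnaja4 from -0.11 to 0.22, Hspa2 from -0.49 to 0.26, Hspa4 from -0.03 to 0.16, Hsf5 from -0.47 to 0.20, Hspb6 from -0.20 to 0.14, Bag3 from -0.18 to 0.34, Bag6 from -0.00 to 0.66, Hspa8 from -0.22 to 0.05 and Hspa13 from -0.02 to 0.16.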

Other observations

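Klotho-deficient replicate 2 was the lowest array for Hspa1a, Hspa1b, Hspb1, Hspb8 and Bag3, which were picked after their values were seen. Hspb1 read 14403 and 15839 on replicate 3 of the klotho-deficient and wild-type groups, and 7187 to 9152 on the other 4 arrays. Hspb8 read 11238 and 9714 on the same pair of arrays and 5866 to 7626 on the rest. Bag3 read 4041 on klotho-deficient replicate 3 but no more than 2470 elsewhere, wild-type replicate 3 included. Hsp90aa1 did not share this order and was lowest on klotho-deficient replicate 3, at 13451. Dnajb1 shared it in part. It was lowest on klotho-deficient replicate 2, at 24403, and highest on wild-type replicate 3, at 47389. On klotho-deficient replicate 3 it read 29082 against 30116 on klotho-deficient replicate 1.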
